A study of Mus musculus with 15 samples.

Results

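Cytosolic ribosomal protein genes encode the proteins of the large (Rpl) and small (Rps) subunits of the ribosome that works in the cytosol. They were taken by symbol: Rpl or Rps plus digits, with an optional a, x, y or l, or an l with a number, after them, together with Rplp0, Rplp1, Rplp2 and Rpsa, and without the -ps pseudogenes and the Rps6k kinases. This gave 86 of the 36118 genes listed, 53 of the large and 33 of the small subunit. Of these, 83 had a mean normalised value of at least 10 over the 15 libraries and were tested. The other 3 were Rpl6l, Rpl32l and Rps12l1, and Rps12l1 was listed at 0 in each library. All 3 of these, and Rps4l among the tested genes, carry a processed pseudogene type in the annotation used for names. Ribosomal protein genes with other symbols, such as Rps3a1, Rpl36al and Rps27rt, fall outside the rule and were used only where named.

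The libraries were made from total RNA of mouse testes, with C57/BL6 as the labelled genotype, with 3 libraries in each of 5 groups. One group is Control, and the treated ones are MTX, AA, TSA and HMS-I1. Genotype and tissue were shared by all groups, and the labels state no dose, age or length of treatment and do not expand the treatment names. The series' title concerns modifications of histones H3 and H4 and chromosome organisation in meiotic prophase. HMS-I1 was grouped by title, since the treatment named for its libraries differs (HMS-I1 in one, HMS-I2 in another, HMS-I3 in the last). No label says whether libraries of a group are separate animals, so p-values measure the spread between these libraries, which may be technical.

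Ribosomal protein mRNAs are among the most abundant of most cells, and their products are needed in largely equal numbers. Many begin with a C followed by a run of pyrimidines, the terminal oligopyrimidine motif, through which mTORC1 and Larp1 set their translation. In the testis, the X chromosome is silenced during meiosis, and autosomal paralogues of X-linked ribosomal protein genes, such as Rpl10l and Rpl39l, are known for being expressed in male germ cells.

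RefSeq start sites (GRCm38.p6) were found for 63 of the 86 genes. The windows below are shown because they hold the start sites of an abundant gene (Rps24), of the S6 kinase target (Rps6), of genes compared with their copies (Rps27 and Rpl31) and of the X-linked genes with their germ cell paralogues (Rpl10, Rpl10l, Rpl39 and Rpl39l). Each runs 5′ to 3′ over 30 bases, 20 before the annotated start base and 10 from it on. Capitals mark a pyrimidine tract, meaning a C followed by at least 4 bases that are each C or T, beginning within 5 bases of the start base.
Rps6: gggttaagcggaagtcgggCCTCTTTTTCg
Rps24: acgcccccgcgctggggtCCTTCCTTgcgc
Rps27: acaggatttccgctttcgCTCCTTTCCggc
Rpl31: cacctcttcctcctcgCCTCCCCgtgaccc
Rpl10: ctatggttgttacagtggaagataggccgc
Rpl10l: agaaatttggcctccattttgcggctggcg
Rpl39: ccccccctaagctccgCCTCTagcgacttc
Rpl39l: cctagctcccaggcctttccggatttccgg
These windows lie at chr4:86857358-86857387 (minus strand) for Rps6, chr14:24490658-24490687 (plus) for Rps24, chr3:90213639-90213668 (minus) for Rps27 and chr1:39367831-39367860 (plus) for Rpl31. Those of the pairs lie at chrX:74270796-74270825 (plus) for Rpl10, chr12:66284392-66284421 (minus) for Rpl10l, chrX:37085213-37085242 (minus) for Rpl39 and chr16:10170208-10170237 (plus) for Rpl39l. Rps24 has another RefSeq start with no tract.

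A tract was present at some start of 30 of the 63 genes (47.6%), against 21.2% of all 27025 genes with a promoter and 24.6% of 69 mitochondrial ribosomal protein genes. The letters CCGGAA, searched on both strands over the 250 bases upstream, were in 39.7% of the cytosolic ribosomal protein genes, 13.6% of all genes and 40.6% of the mitochondrial ones. TATAAA was found in 1.59% of the cytosolic ribosomal protein genes and 2.78% of all genes. Rpl39 carried a short tract, while Rpl10, Rpl10l and Rpl39l carried none that begins within 5 bases of the start base. Pyrimidine runs that begin farther upstream, as in the windows of Rpl10l and Rpl39l, were not counted and are not marked. The annotated starts need not be those used in testis.

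A few facts of the whole series touch each result. Values of 70 histone genes split the libraries into 2 sets: a first set of 6 (Control 1, Control 2 and replicate 1 of every treatment) and a second set of 9 (Control 3 and the other replicates of every treatment). The sets are not in the labels, were found in the data, and get no test here. The 13 mitochondrially encoded genes together had 339700 to 445400 in first-set libraries and 984000 to 5555000 in second-set ones. The total normalised signal was 27490000 to 40650000 per library, which is not a depth, and the depth is unknown. The commonest value above 0 and below 5 was 1.98 to 2.62 in first-set and 0.453 to 0.917 in second-set libraries. Between 20680 and 21240 genes were above 0 in the former, and between 21360 and 22860 in the latter. Whether the sets differ in depth was not tested. Markers of spermatogonia, spermatocytes, spermatids, Sertoli, Leydig and myoid cells were all present, and 5 epididymis markers summed to at most 14.5.

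Rps24, which is needed for maturation of the small subunit's RNA, and Rpl41, a very short basic protein, had the highest levels. Per kilobase of transcript, their mean normalised values over the 15 libraries were 48370 and 47420, followed by Rps14 (31740), Rpl26 (31210) and Rpl32 (25300). The median of the 79 tested autosomal members was 10260 per kilobase. At the low end stood Rpl3l, the paralogue of striated muscle, with 7.53 per kilobase, then Rpl12 (381), Rpl5 (381), Rpl7l1 (622) and Rpl10 (1052). The low values of Rpl12, Rpl5 and Rpl10 are set beside those of their copies further on. The levels of neighbours in this order were not tested against each other.

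All 4 X-linked members were in the lowest part of the order. Rps4x had 2460 per kilobase (rank 73 of 83), Rpl36a 2306 (rank 74), Rpl39 2130 (rank 77) and Rpl10 1052 (rank 79). Rpl36a and Rpl10 have few 31-base words of their own, 12.4% and 7.67% of their transcript words, so reads can be split between them and other genes. A testis sample mixes cell types, and fewer cells of a type cannot be told apart from less RNA per cell in any value here.

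Together the 86 genes took between 1.09% and 2.91% of the normalised signal of a library. In Control the shares were 2.30%, 2.91% and 1.59% for replicates 1, 2 and 3. In MTX they were 2.91%, 1.09% and 2.74%, and in HMS-I1 2.69%, 1.35% and 2.52%. Each of these groups held high and low libraries, and their ranges overlapped. AA had 2.38%, 1.69% and 1.61%, and TSA had 2.71%, 1.54% and 2.49%. The group means were 2.27% ± 0.658 (SD, n = 3) in Control, 2.25% ± 1.01 in MTX, 2.19% ± 0.729 in HMS-I1, 1.90% ± 0.424 in AA and 2.25% ± 0.620 in TSA, and they differed by less than the SD of any group.

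**Figure D1:**
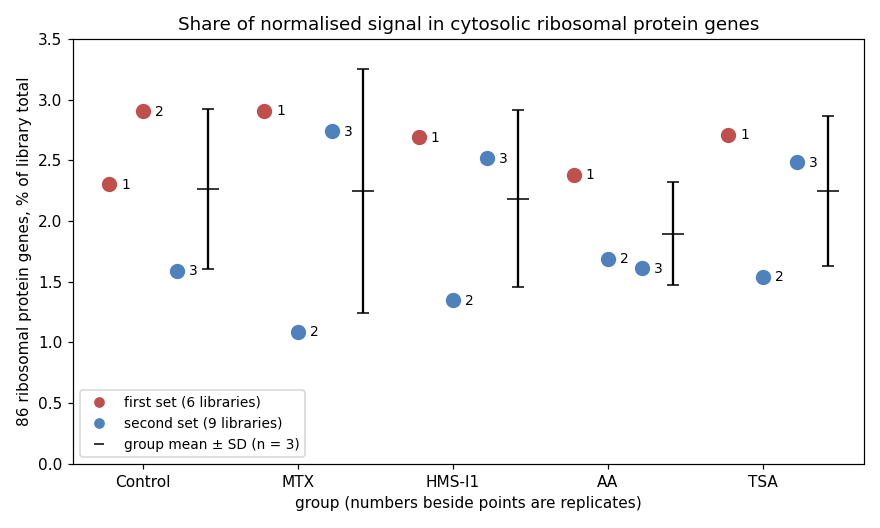
Share of each library's normalised signal (y axis, percent) in the 86 cytosolic ribosomal protein genes, by group (x axis), with replicate numbers beside the points, colours for the 2 library sets, and bars for the group mean ± SD (n = 3). The first set lies at 2.30% to 2.91%, the third replicates of TSA, MTX and HMS-I1 at 2.49% to 2.74%, and the other 6 libraries at 1.09% to 1.69%.

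The shares fell into 2 ranges that did not follow the groups. The 6 libraries of the first set lay at 2.30% to 2.91%, and the third replicates of TSA, MTX and HMS-I1 were inside that range although they belong to the second set by their histone values. The remaining 6 libraries, AA 2 and AA 3 among them, lay at 1.09% to 1.69%. AA was the treatment without a second-set library in the upper range. Control 2 held the highest value of 30 of the 83 tested genes, MTX 3 of 21 and TSA 3 of 11, while MTX 2 held the lowest value of 37 and AA 2 of 13. The signal of large-subunit genes divided by that of small-subunit genes was 1.43 to 1.93, highest in MTX 2 and lowest in MTX 1.

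Between the library sets, 62 of the 83 genes had a higher mean log2(value + 1) in the first set and 21 a lower one, with a median difference of 0.42. Across all 17896 tested genes the median was 0.00. The libraries of the sets did not overlap for 20 genes that were higher in the first set, where the background over all genes is 12.8%, and for 1 that was lower, where it is 12%. In either direction this is 25.3% of the members and 24.8% of all genes, so the share without overlap was near the background, while the directions were unequal. The median difference was 0.41 over the large-subunit and 0.53 over the small-subunit genes. Over 78 mitochondrial ribosomal protein genes it was 0.04.

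Rpl36, a short large-subunit protein, had the largest difference. It was at 13960, 14620, 14830, 17610, 10720 and 17150 in the first-set libraries (both of Control, then those of MTX, HMS-I1, AA and lastly TSA). Among the second-set libraries it was at 2100 in Control 3, 1522 and 5354 in MTX 2 and 3, 1825 and 5472 in HMS-I1 2 and 3, 2915 and 1835 in AA 2 and 3, and 1514 and 4355 in TSA 2 and 3. Every first-set library was above every second-set one, with a difference of means of 2.48 on the log2 scale. Within the second set, replicate 3 of MTX, HMS-I1 and TSA was higher than the rest.

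Rps28, which sits at the mRNA exit of the small subunit, ranged over 10530 to 12910 in first-set libraries and 1487 to 3732 in second-set ones, a log2 difference of 2.34. Rpl38, a short protein whose loss alters skeletal patterning in the mouse, ranged over 11210 to 13710 against 1625 to 5016 (2.35). Rps29 ranged over 11200 to 18000 against 1546 to 5331 (2.25). The transcripts of these 3 are 364 to 390 bases long. Rpl6 was the single member with all first-set libraries below the second, at 4983 to 6362 against 7638 to 12140 (-0.79). Rps14 had the widest range of the abundant genes, from 2383 in MTX 2 to 35770 in Control 2.

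The difference between the sets ran with transcript length. The 28 shortest transcripts (345 to 614 bases) had a median difference of 1.22, and 28 of 28 were higher in the first set. The middle 28 (630 to 887 bases) had a median of 0.29, with 23 higher. The 27 longest (899 to 5130 bases) had a median of -0.13, with 11 higher. By the 1 annotated transcript used per gene, that class holds Rps15a (5130 bases), Rps20 (3706) and Rpl5 (2045). The transcripts used in testis need not be these. Spearman's rho between length and difference was -0.67 across the 83 genes, and -0.61 with the longest eligible transcript of each gene, a choice added after the data were seen. Genes are not independent replicates and share the same libraries, so this is a description. The same measure was 0.07 for GC content and -0.05 for the share of 31-base words unique to the gene.

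**Figure D2:**
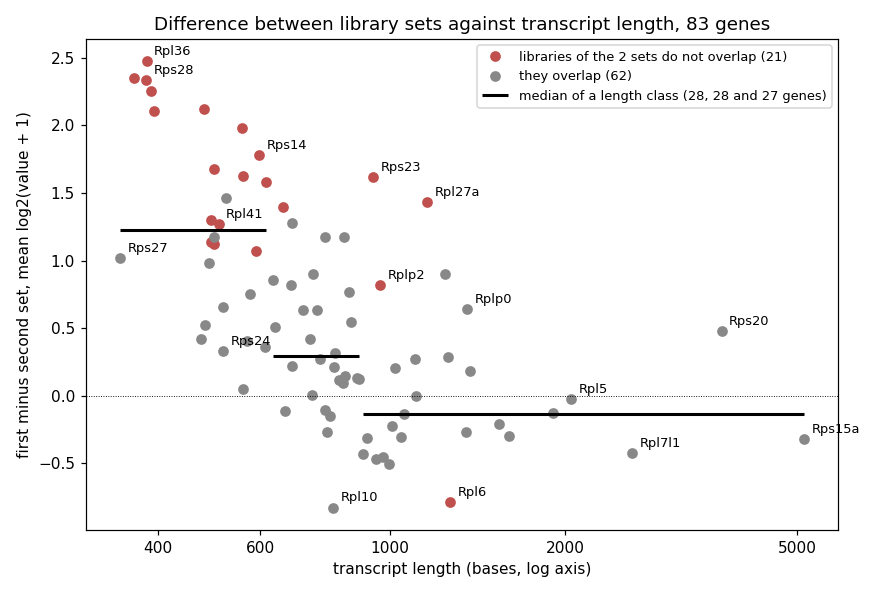
Difference of mean log2(value + 1) between the first and the second library set (y axis) against transcript length (x axis, bases, log scale) for the 83 tested genes, with black bars for the medians of the 3 length classes. The bars stand at 1.22, 0.29 and -0.13, and red points mark the 21 genes whose libraries do not overlap between the sets.

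Other protein-coding genes within the same length bounds had medians on the same side of 0 in each class. Lengths inside a class were not matched. Of 407 other genes in the shortest class, 79.6% were higher in the first set, with a median difference of 1.09. In the middle class the median of 729 genes was 0.44, with 67.2% higher, and in the longest class the median of 13006 genes was -0.09, with 45.3% higher. By library, the 28 shortest members lay 0.47 to 0.98 above their own means in the first set and 0.62 to 1.06 below them in the 6 low libraries of the second set. The 27 longest lay within 0.09 of their means throughout the first set, and 0.46, 0.22 and 0.24 above them in replicate 3 of MTX, HMS-I1 and TSA. Those 3 libraries thus reached a high total share with the longer transcripts higher and the shortest at 0.26, 0.05 and -0.10.

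Several cell type markers differed between the sets as well. The sums of 6 myoid and smooth muscle markers were 4004 to 5695 in first-set and 8682 to 12960 in second-set libraries, and those of 7 Sertoli cell markers were 25960 to 28440 against 35040 to 61350. Clu alone was at 16720 to 19210 against 24290 to 44280 and made up most of the Sertoli cell sum. Of the 7 Sertoli cell markers, 6 were lower in the first set, 4 of them without overlap. The other, Amhr2, was at 3829 to 4898 against 1181 to 7030. Spermatogonial markers (7 genes) summed to 2674 to 3044 against 4261 to 6597. Of these, 6 were lower in the first set, 3 of them without overlap, and 1, Gfra1, was higher. Elongating spermatid markers (7 genes) summed to 640400 to 916100 against 299200 to 561200. Of those 7, 5 were higher and 2 lower in the first set, and Smcp, a sperm mitochondrial protein gene, ran the other way without overlap, at 8365 to 11930 against 35300 to 166300. The mean log2 of the 7 overlapped between the sets, at 15.71 to 16.21 against 15.04 to 16.16. In none of the 4 lists was a marker at 0 in all libraries. Their part in the difference of the ribosomal protein genes was not tested.

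Many ribosomal protein genes have processed copies elsewhere in the genome, and the quantification assigned part of the signal to them. Genes with at least 50% of their 31-base words inside a member's transcript were counted as copies, a rule chosen after the values were seen. It found 300 such genes, 290 of them annotated as pseudogenes, for 68 members. A separate count by name, over the 300 listed pseudogenes with -ps symbols, gave sums of 2575 to 3880 in first-set and 13130 to 24730 in second-set libraries. Per 100 units of ribosomal protein signal that is 0.300 to 0.483 against 2.60 to 4.64, with no overlap.

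Rps23, at the decoding centre of the small subunit, shows the pattern in full. Rps23 was at 12700 to 17280 in the 6 first-set libraries and 3649 to 6414 in the 9 others. Its copy Rps23-ps1, whose 31-base words are all in Rps23, was at 0 to 245 in the former and 3045 to 6410 in the latter. Summed with its copies, the log2 difference of Rps23 between the sets went from 1.62 to 0.65. The copy was as high as the gene in several second-set libraries and nearly absent from the first set.

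Rpl31, at the rim of the exit tunnel, had a copy of the same kind. Rpl31-ps8 was listed at 0 in all 6 first-set libraries and was at 3045 in Control 3, 2408 and 3226 in MTX 2 and 3, 2876 and 2694 in HMS-I1 2 and 3, 1442 and 2651 in AA 2 and 3, and 2922 and 2093 in TSA 2 and 3. Rpl31 itself was at 9470 to 11440 in first-set and 3981 to 11130 in second-set libraries. The copy therefore separated the sets without overlap where the gene did not. Rpl28-ps1 (at most 6.08 against 750.5 to 2087), Rpl10a-ps1 (at most 9.32 against 549.5 to 1485) and Rps16-ps2 (at most 6.83 against 365.4 to 2073) separated them in the same direction. Among the 24 tested -ps pseudogenes, 8 were higher in the second set without overlap and 4 in the first, such as Rpl36-ps3 (56.0 to 161.2 against 0.738 to 24.2) and Rpsa-ps5 (22.02 to 63.15 against 0 to 14.12). In all, 10 of the 24 were higher in the first set and 14 lower.

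For Rpl12 and Rpl5 most of the signal was assigned to copies in each of the 15 libraries, and for Rpl10 and Rpl27a by the median over libraries. Rpl12, at the base of the stalk, was at 169 to 838, and its copy Gm10275 at 5803 to 12430, so copies held 93.2% to 98.1% of the sum. Rpl5, which with Rpl11 and the 5S RNA can bind Mdm2, was at 497.5 to 1185 and its copy Gm15500 at 6005 to 11410, with copies at 89.2% to 95.2%. Rpl10, a late-joining protein of the large subunit, was at 316 to 2123 and Rpl10-ps3 at 484 to 3141, with copies at 42.1% to 87.8%. For Rpl10, the log2 difference between the sets was -0.83 alone and 0.01 with copies. Rpl27a, whose leading copy is Gm7536, had copies at 12.6% to 65.3% of the sum, with a median of 57.4%, and a difference of 1.43 alone and 0.33 with copies.

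Rps27, a zinc-finger protein of the small subunit, and its intronless relative Rps27rt showed a split that changed from library to library. In the first set, Rps27 was at 8499 in Control 1, 4383 in Control 2, 23690 in MTX 1, 3677 in HMS-I1 1, 2796 in AA 1 and 9855 in TSA 1. Rps27rt in the same libraries was at 14590, 23690, 2433, 24510, 22700 and 16420. The sum was steady, from 23090 to 28190, while MTX 1 alone had most of it in Rps27. In the second set the sum, which there ran from 2109 to 11150, was lower, and Rps27rt was at 560 to 2651. The log2 difference between the sets was 1.02 for Rps27 and 2.44 for the sum. MTX against Control gave -3.15 for Rps27rt (limma, SE 1.44, adjusted p = 1).

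**Figure D3:**
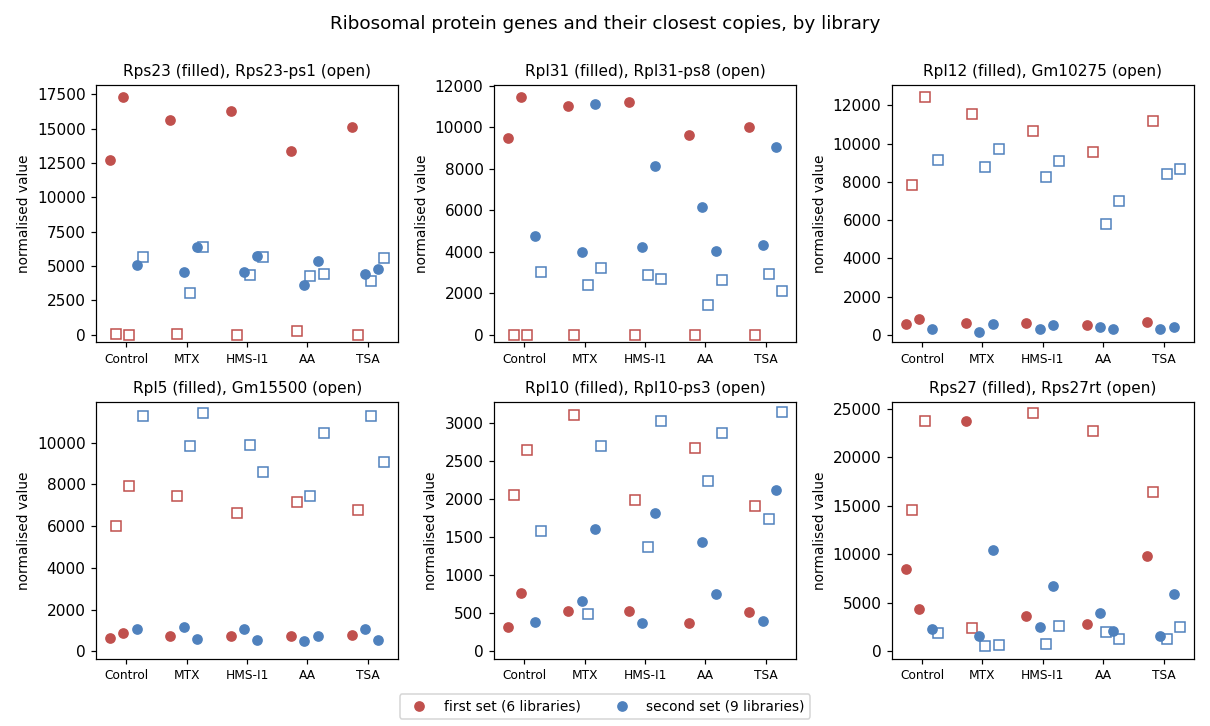
Normalised values (y axis) in each library, by group (x axis), for 6 ribosomal protein genes (filled circles) and their leading copies (open squares), coloured by library set. Rpl31-ps8 stands at 0 in first-set libraries and at 1442 to 3226 in the others, Gm10275 stands above Rpl12 in every library, and Rps27 exceeds Rps27rt in the first set in MTX 1 alone.

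With copies summed into all members, the median difference between the sets was 0.33 in place of 0.42, and 58 of 83 genes were higher in the first set in place of 62. Copies made up more than 10% of the sum, by the median over libraries, for 14 members. The 32 members with at least 50% of their words unique had a median difference of 0.34, and the other 51 had 0.53.

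Among 8 pairs of a paralogue and its parent gene, Rpl10l, Rpl39l and Rpl36al, paralogues of X-linked genes, exceeded their parents' own values in all 15 libraries. Rps4l, the other paralogue with an X-linked parent, exceeded Rps4x per kilobase in 14 of 15 libraries, with a ratio of 0.999 to 2.2. Rpl10l, a retrogene known to stand in for Rpl10 in meiotic cells, was at 4701 to 7235, and Rpl10 at 316 to 2123. Per kilobase the ratio was 2.44 to 14.8, with a median of 9.97. With the copies of Rpl10 summed into it, a comparison chosen after seeing the data, the ratio was 0.981 to 4.66, with a median of 1.68, and Rpl10l was higher in 14 of 15 libraries, all but TSA 3. The size of the excess of Rpl10l thus depends on whether the copies of Rpl10 are counted. Rpl39l, the germ cell paralogue of the exit tunnel protein Rpl39, was at 5529 to 15320 against 680 to 2386 for Rpl39. Per kilobase that ratio was 3.86 to 8.08, with a median of 5.41, and 3.86 to 8.08 with copies too. Rpl36al exceeded the X-linked Rpl36a by 2.15 to 4.52 times per kilobase, and by 1.36 to 4.49 times with the copies of Rpl36a.

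The ratio of Rpl10l to Rpl10 varied more than that of Rpl39l to Rpl39. On the log2 scale of values plus 1 it was 4.24, 3.22 and 3.96 in Control 1, 2 and 3, and 3.73, 3.36 and 2.13 in MTX. It was 3.73, 3.90 and 1.87 in HMS-I1, 4.14, 1.84 and 2.63 in AA, and 3.82, 3.67 and 1.64 in TSA. The lowest ratios were those of TSA 3, AA 2, HMS-I1 3 and MTX 3, where Rpl10 was at 2123, 1443, 1815 and 1611, against 316 to 772 in the other 11 libraries. Rpl10l stayed within 1.54 times from its lowest to its highest library, the narrowest range of the tested members. The groups overlapped: Control had 3.81 ± 0.528 (SD, n = 3), and the treatments had means of 2.87 to 3.16 with SDs of 0.833 to 1.22.

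**Figure D4:**
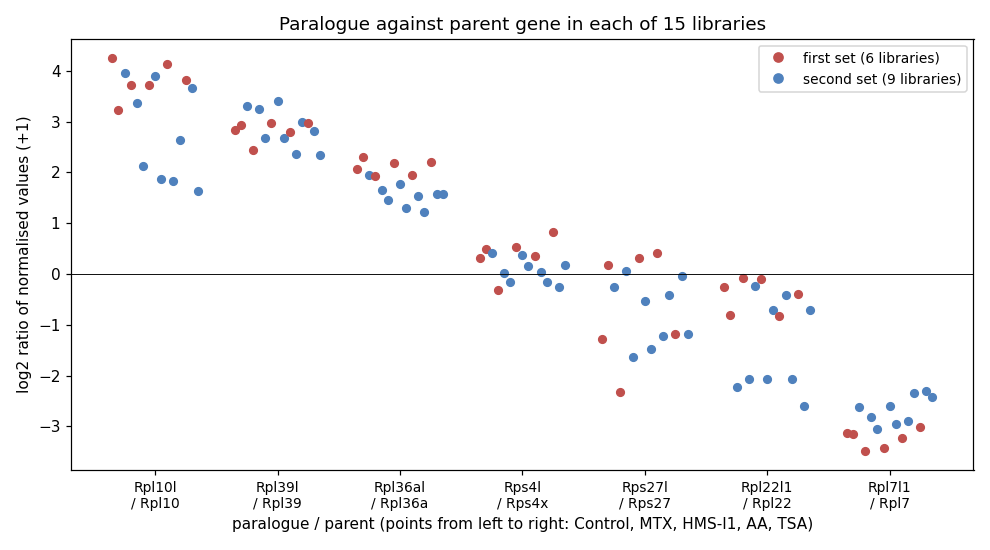
The log2 ratio of paralogue to parent value (y axis, 1 added to each) for 7 pairs (x axis) in each of the 15 libraries, ordered from left to right by group (Control first, then MTX, then HMS-I1, AA and TSA) within a pair and coloured by library set. The ratios to Rpl10, Rpl39 and Rpl36a, each taken without its copies, lie above 0 in all 15 libraries, those to Rpl22 and Rpl7 below 0, and Rpl3l against Rpl3, at -8.21 to -10.3, is left out.

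Per kilobase, the remaining paralogues other than Rps4l were below their parents in every library. Values and ratios in this paragraph are not scaled by length unless given per kilobase. Rps4l, of pseudogene type in the annotation, was at 1597 to 4334 against 1556 to 4021 for the X-linked Rps4x, a log2 ratio of -0.31 to 0.83 that was above 0 in 11 of 15 libraries. Per kilobase its median ratio was 1.40, and it was higher than Rps4x in 14 of 15 libraries, with or without the copies of Rps4x. Rpl22l1 was below Rpl22, whose tagged form serves for isolating ribosomes from chosen cells, in all 15 libraries, by -0.08 to -2.60. That ratio was lowest in the 6 low libraries other than AA 2, at -2.06 to -2.60 in Control 3, MTX 2, HMS-I1 2, AA 3 and TSA 2, and AA 2 stood at -0.41. Rps27l, known as a target of p53, had a log2 ratio to Rps27 of -2.33 to 0.41 (-2.86 to -0.12 per kilobase), which carries the shifting split of Rps27 and Rps27rt. Rpl7l1 was below Rpl7 by -2.31 to -3.48 (-3.94 to -5.12 per kilobase), and Rpl3l was at 4.59 to 21.4 against 5087 to 12000 for Rpl3.

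The proteins that form the stalk, which recruits the elongation factors, differed in how they varied. Rplp0, its base, was at 11380 to 32760, lowest in MTX 2 and highest in Control 2. Rplp1 was at 9102 to 15900 in first-set and 1784 to 8913 in second-set libraries, a log2 difference of 1.68 without overlap. Rplp2 was at 3562 to 4382 against 1680 to 3423, a difference of 0.82 without overlap. Rps6, the S6 kinase target, stayed within 8427 to 14630, Rpsa, also known as a laminin receptor, within 6639 to 12110, and Rpl11 within 6275 to 11160, and all 3 overlapped between the sets.

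The narrowest ranges over the 15 libraries, as highest divided by lowest value, were those of Rpl10l (1.54), Rpl19 (1.55), Rpl28 (1.59), Rpl4 (1.63) and Rps6 (1.74). The widest were those of Rps27 (15.4), Rps14 (15.01), Rps29 (11.6), Rpl36 (11.6) and Rps21 (10.3). The transcripts of these 5 are 345 to 597 bases long. Those of the narrow 5 are 737 to 1538 bases long.

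The treatments were compared with Control by limma over all 17896 genes. No member passed an adjusted p of 0.05 in MTX, HMS-I1, AA or TSA against Control, where 0% of all genes passed in each comparison, and none had an unadjusted p under 0.05. The background at unadjusted p under 0.05 was 0.548% of all genes in MTX, 0.408% in HMS-I1, 0.799% in AA and 5.74% in TSA. The F-test over the 5 groups called 0 members and 0 genes, with 0 members and 1.29% of all genes at an unadjusted p under 0.05. In the 6 pairs of treatments 0 members passed either threshold. The background there at the unadjusted p was 0.609% for HMS-I1 against MTX, 1.7% for AA against MTX, 5% for TSA against MTX, 1.25% for AA against HMS-I1, 2.71% for TSA against HMS-I1 and 4.14% for TSA against AA. No member of the other 3 treatment pairs, those without AA, was free of overlap, where 1.18% and 1.45% (HMS-I1 against MTX), 1.94% and 1.99% (TSA against MTX) and 1.22% and 1.38% (TSA against HMS-I1) of all genes were, upward and downward.

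Against Control, the median log2 difference of the 83 genes was -0.04 in MTX (37 higher), -0.06 in HMS-I1 (36 higher), -0.31 in AA (14 higher) and -0.07 in TSA (33 higher). Across all tested genes these medians were -0.01, -0.02, -0.02 and 0.01. Control has 2 of its 3 libraries in the first set and each treatment 1 of 3. With the library set as a term in the model, the medians became 0.12 in MTX (68 higher), 0.13 in HMS-I1 (67 higher), -0.12 in AA (27 higher) and 0.11 in TSA (60 higher), so the sign changed for MTX, HMS-I1 and TSA and not for AA. With a block for the replicate number as well, the AA median was 0.15 (54 higher). In that fit only Control 2 tells the set from the replicate number. Control 2 is then fitted exactly, and the Control level rests on Control 1 and Control 3. Within the first set alone, with 1 library of each treatment, the medians were 0.09, 0.10, -0.12 and 0.06. Within the second set, with Control 3 as the only control, they were 0.15, 0.18, -0.06 and 0.15. These 4 comparisons share the same 3 control libraries. None of the medians comes with a test.

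Rpl30, which forms a bridge between the subunits, had the smallest p of the members in AA against Control. It was at 11390, 14580 and 12540 in Control and at 10750, 6682 and 8858 in AA. All AA libraries were below all Control libraries, a difference of -0.57 (limma, SE 0.31, adjusted p = 1.00). It was the single member without overlap in that direction, where the background is 2.23%. Replicate 3 of HMS-I1 and TSA were also low, at 7635 and 6990, and MTX was at 14480, 15370 and 11440. In the other direction Rps4x, X-linked, was at 1829, 1891 and 1850 in Control and 1943, 2986 and 2739 in AA (0.44, SE 0.41, not past the threshold), against a background of 2.81%.

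The other members with the smallest p in AA against Control were Rps2 (0.30), Rpl10 (0.70), Rpl7l1 (0.20) and Rpl6 (0.19) on the higher side, and Rpl3l (-0.85), Rpl32 (-0.55), Rps24 (-0.36) and Rps26 (-0.35) on the lower, none of which passed. In MTX they were Rpl21 (0.34), Rpl10 (0.86), Rps15a (0.40), Rps4x (0.44) and Rpl14 (0.23), with Rps16 (-0.57), Rps10 (-0.28), Rps29 (-0.76), Rpl12 (-0.40) and Rps21 (-0.71) lower. Rps16, whose tail reaches the peptidyl tRNA, was at 948.8 in MTX 1, 2045 in MTX 2 and 3358 in MTX 3, against 2445, 3076 and 2852 in Control, so the value of MTX rests on its replicate 1: without it the difference was -0.08. The values of Rps29 and Rps21 had SEs of 1.00 and 0.97 and became -0.02 and -0.00 with the library set as a term.

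In HMS-I1 against Control the members with the smallest p were Rps2 (0.40), Rpl10 (0.64), Rpl13 (0.34), Rpl3 (0.25) and Rpl6 (0.28) on the higher side. On the lower side they were Rps12 (-0.44), Rpl22 (-0.21), Rps28 (-0.66), Rps23 (-0.46) and Rps21 (-0.63). In TSA they were Rpl7l1 (0.40), Rpl14 (0.29), Rpl3 (0.32), Rpl7a (0.28) and Rpl10 (0.73), with Rps24 (-0.25), Rps12 (-0.58), Rps29 (-0.92), Rpl30 (-0.28) and Rpl37 (-0.49) lower. None passed, and the smallest adjusted p of a member was 1 in MTX, 1 in HMS-I1, 1.00 in AA and 0.886 in TSA. All 3 libraries of a treatment stood apart from all 3 of Control for 0 members in MTX, HMS-I1 and TSA, where 1.32% and 1.15%, 1.35% and 1.35%, and 2.36% and 2.18% of all genes did so upward and downward.

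**Figure D5:**
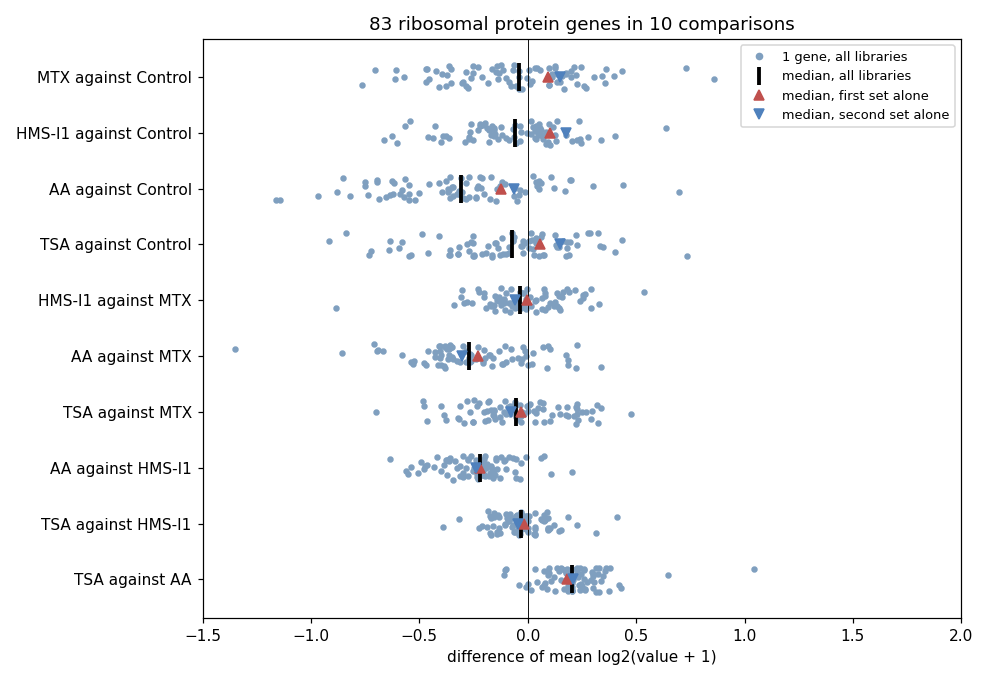
Difference of mean log2(value + 1) (x axis) of the 83 tested genes in each of the 10 comparisons (y axis), with the median over all libraries (bar) and within each library set (triangles). The medians of AA against MTX, AA against HMS-I1 and TSA against AA are -0.27, -0.22 and 0.20 and keep their side of 0 within both sets, and those of MTX, HMS-I1 and TSA against Control do not. By share of the library total, AA 2 and AA 3 lie above replicate 2 and below replicate 3 of the other treatments.

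Between treatments, which have the same number of libraries in each set, the members lay lower in AA. In AA against HMS-I1 the median difference was -0.22 and 79 of 83 genes were below 0, with -0.22 in the first-set libraries and -0.24 in the others. In AA against MTX it was -0.27 (70 below 0), with -0.23 and -0.31 within the sets, and in TSA against AA it was 0.20 (77 above 0), with 0.18 and 0.21. All-gene medians in these comparisons were 0.01, 0.00 and -0.01. The 3 comparisons share the AA libraries, and each first-set value compares 1 AA library with 1 of the other treatment. Within the second set, the shares of the library total in AA 2 (1.69%) and AA 3 (1.61%) were not the lowest. They lay above replicate 2 of HMS-I1 (1.35%), MTX (1.09%) and TSA (1.54%), and below replicate 3 of those treatments (2.49% to 2.74%). HMS-I1 against MTX, TSA against MTX and TSA against HMS-I1 had member medians of -0.04, -0.05 and -0.03, with 33, 33 and 30 genes above 0.

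Values that moved alongside belong beside this. Without replicate 3 of MTX, HMS-I1 and TSA, a choice added after the data were seen, the medians were -0.15 for AA against HMS-I1, -0.11 for AA against MTX and 0.16 for TSA against AA. That choice unbalances the sets, since AA keeps both its second-set libraries and the other treatments do not. The mean log2(value + 1) of all members was 11.69 in AA 2 and 11.61 in AA 3. In replicate 2 of HMS-I1, MTX and TSA it was lower, at 11.53, 11.38 and 11.5. With 1 library of a pair left out, the medians ranged over -0.50 to -0.04, -0.61 to -0.06 and 0.04 to 0.42. The values nearest 0 came without replicate 1 of HMS-I1, MTX or TSA, and the farthest without replicate 2 of the same group. Without AA replicate 1 they were -0.39, -0.41 and 0.38, without AA replicate 2 they were -0.13, -0.15 and 0.12, and without AA replicate 3 they were -0.12, -0.17 and 0.09. For AA against Control the range was -0.46 (without AA replicate 1) to -0.11 (without Control replicate 2). The 78 mitochondrial ribosomal protein genes lay on the same side, with medians of -0.25 (71 below 0), -0.24 (68 below 0) and 0.28 (71 above 0). Of 7 leukocyte markers, 7 were higher in AA than in HMS-I1, 7 higher than in MTX and 1 higher in TSA than in AA, and their sum over the series was 1965 to 5204. Of 7 elongating spermatid markers, 0 were higher in AA than in HMS-I1, 1 higher than in MTX and 4 higher in TSA than in AA. The part of these cells in the result was not tested.

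Rpl17, which lines the exit tunnel, separated AA from each of the other treatments. It was at 8319, 8055 and 8499 in AA, at 9819, 9574 and 11290 in HMS-I1, at 10070, 8734 and 13410 in MTX and at 10410, 9810 and 11800 in TSA. All AA libraries were below all libraries of the other treatments, and Control, at 6926, 11730 and 10990, spanned them. Rpl17 was chosen after its values were seen, and the comparisons share the AA libraries. In single pairs, 2.55% (HMS-I1), 2.6% (MTX) and 2.83% (TSA) of all genes were lower in AA without overlap. The share of all genes that were so in every pair was not counted. The differences were -0.30 (SE 0.23) against HMS-I1 and 0.36 (SE 0.23) for TSA against AA, with an adjusted p of 1 in limma.

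Rpl19, part of a bridge between the subunits, was at 9546, 7723 and 9166 in AA, 10650, 10340 and 10840 in HMS-I1 and 10940, 10620 and 11970 in TSA. It did not overlap in either pair (-0.27, SE 0.20, and 0.35, SE 0.20, neither past the threshold). Rpl14 was at 4773, 3631 and 4570 in AA and 5022, 5977 and 6469 in TSA (0.43, SE 0.23). Rpl3l was the fourth member without overlap in TSA against AA, at 10.8 to 15.9 against 4.59 to 7.14 (1.04, SE 0.55), and the third in AA against HMS-I1. Those 4 and 3 members compare with 2.83% and 2.55% of all genes in the same direction. In the opposite direction 0 members were free of overlap, where 2.58% and 2.49% of all genes were.

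In AA against MTX the 4 members without overlap were Rpl30, Rpl23, Rpl17 and Rpl10l, all lower in AA, where the background is 2.6% (2.69% in the other direction, with 0 members). Rpl30 had the smallest p there (-0.67, SE 0.31, limma adjusted p = 1). Rps15a (-0.70), Rps20 (-0.86), Rpl10l (-0.37) and Rpl35 (-0.54) followed. With the library set as a term, 6 members had an unadjusted p under 0.05 in this comparison, where 5.73% of all genes did, and the smallest adjusted p of a member was 0.845. Among the higher members the values were 0.34 for Rps9, 0.23 for Rps10, 0.22 for Rps4l, 0.18 for Rps16 and 0.19 for Rps2.

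AA against HMS-I1 had Rpl39l (-0.47), Rps15a (-0.51) and Rpl11 (-0.33) as its other members with the smallest p on the lower side, and Rps4x (0.20), Rpl7l1 (0.11), Rps9 (0.07) and Rpl10 (0.06) as the 4 members above 0. Rpl39l was at 8827, 6719 and 6449 in AA and 11930, 7681 and 11140 in HMS-I1, and the groups overlapped. In TSA against AA the 6 members below 0 had differences of -0.11 or smaller in size, with Rpl36a (-0.11), Rps4x (-0.10) and Rps9 (-0.10) among them. TSA against MTX and TSA against HMS-I1 both had Rpl39l on the lower side, at -0.40 (SE 0.32) and -0.39 (SE 0.32).

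Other genes of ribosome production and translation were taken from lists. None of 41 translation initiation genes, 13 elongation and termination genes, 59 ribosome assembly genes, 17 genes of RNA polymerase I and its regulation or 18 genes of the control of pyrimidine-tract mRNAs passed an adjusted p of 0.05 in any of the 10 comparisons by limma. At an unadjusted p under 0.05 there were at most 3 in a list and comparison, the 3 being assembly genes in AA against MTX and in TSA against AA. In AA against HMS-I1 their medians were -0.12, -0.06, -0.04, 0.03 and -0.03, with 13, 4, 25, 9 and 8 genes above 0, compared with -0.22 and 4 of 83 for the ribosomal protein genes. The smallest p belonged to Taf1b, of the RNA polymerase I selectivity factor (AA against MTX, -0.53, SE 0.19, limma adjusted p = 1), and to Mycn, an activator of ribosome production (TSA against Control, 1.16, SE 0.42, limma adjusted p = 0.848). Between the library sets, initiation and assembly genes were on the other side of 0 from the ribosomal protein genes, with medians of -0.21 (11 of 41 higher in the first set) and -0.31 (18 of 59).

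The members with a pyrimidine tract at a start were set beside those without, and the difference between them was not tested. Between the library sets, the 29 tested members with a tract had a median of 0.63 and the 33 without it 0.42, with 23 higher in the first set in each. In AA against HMS-I1 the medians were -0.22 (28 of 29 lower) and -0.23 (30 of 33 lower).

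Limma with weights estimated for each library gave other calls, and its estimation of the weights did not converge. It called 38 members in AA against Control, 2 in TSA against Control and 4 in TSA against AA, where 37.1%, 23.7% and 17.3% of all genes were called. The weight of AA 2 was 38.8 and those of the other 14 libraries 0.230 to 2.92, and the part of AA 2 in these calls was not tested. The F-test called 32 members, with 31.5% of all genes. In the remaining 7 comparisons that setting called 0 members and 0% of all genes.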

How the data were processed

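The 15 libraries are from mouse testes, in 5 groups of 3. The values are a signal per gene, namely read counts that the authors normalised between libraries before they deposited them. The submitters' processing notes name FastQC 0.11.9, Salmon 0.12.0, DESeq2 1.34.0 and the build GRCm39. Annotation, strand setting and filters are not given in the sources used here. The values are not whole and no common step gives back reads, so no count test was run and the precision from depth is unknown.

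From these values, log2(value + 1) was fitted for 17896 genes (mean value 10 or more) with limma 3.58.1 in R 4.3.3 (means of the 5 groups, trended empirical Bayes, two-sided, 10 residual degrees of freedom, Benjamini-Hochberg over all genes, threshold 0.05). Every p in the text without another name is from this fit. The model was also tested on simulated data. Symbols, lengths and 31-base words came from GENCODE vM21 on GRCm38, which matched 35825 IDs and not 293, and promoters from RefSeq (GRCm38.p6). The transcript of a gene was picked by the annotation's principal tag, coding type, basic tag and support level, and the shortest was taken at ties. Sets, lengths, copies and paralogue ratios are descriptions made in Python 3.11.15.

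Members named in a comparison are the 5 higher and 5 lower ones with the smallest p, beside the paralogue pairs and the members with the highest and lowest levels and ranges. Other members, such as Rpl36, Rps28, Rpl38, Rps23, Rpl31, Rpl17 and the stalk genes, and the copies, were chosen after their values were seen or for their known roles. The members and lists were chosen with earlier results of these data known. Alternatives covered the scaling, the pseudocount, the filter, the library set, weights, a replicate block and each library left out. Deviations of same-numbered libraries from their group means correlated at 0.13 to 0.76 in all 18 pairs between 2 treatments. Pairs of AA with another treatment were at 0.13 to 0.34 for replicates 2 and 3, and the other pairs at 0.64 to 0.76. Replicate 1 of each treatment is also in the first set. Between a treatment and Control, 4 of 12 pairs, all of replicate 2, were at -0.58 to -0.30. Whether the numbers pair libraries was not tested. The main limma fit has no block for them, and the replicate block was run only as an alternative.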

Additional observations from a re-analysis of the deposited data

How the results depend on the processing

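No member passed the limma threshold in any comparison, and none did with any library left out, with a replicate block or with the library set as a term; the exception was estimated library weights. Those called 6645 genes and 38 members in AA against Control, 4234 and 2 in TSA against Control, 3092 and 4 in TSA against AA, and 5640 and 32 in the F-test, and the weights did not converge. Of all genes, the first set alone called 1 in MTX against Control. The second set alone called 7 in TSA against Control and in TSA against HMS-I1, 6 in TSA against AA and in the F-test, 4 in TSA against MTX, 3 in AA against MTX and 2 in HMS-I1 against MTX. Fits of only the 2 groups compared called 2 in AA against Control and in AA against MTX, and 1 in MTX against Control, TSA against Control, TSA against MTX and TSA against AA. Without replicate 3 of MTX, HMS-I1 and TSA, 1 gene was called in MTX against Control, HMS-I1 against MTX, AA against MTX, TSA against MTX and the F-test. With each library left out, the genes called ranged over 0 to 992 in TSA against Control, 0 to 767 in TSA against MTX, 0 to 616 in TSA against AA, 0 to 537 in TSA against HMS-I1 and 0 to 246 in the F-test, each highest without TSA replicate 1, and over 0 to 1 in MTX, HMS-I1 and AA against Control and in HMS-I1 against MTX. The cause was not tested.

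The members' median stayed below 0 in AA against HMS-I1 (-0.31 to -0.13) and AA against MTX (-0.54 to -0.11) and above 0 in TSA against AA (0.16 to 0.38) over the alternatives other than leaving out single libraries. Those alternatives include the fit without replicate 3 of MTX, HMS-I1 and TSA, which leaves the treatments unbalanced between the sets. In AA against Control it was -0.51 to 0.15, with 0.15 from the replicate block with the library set, and in MTX, HMS-I1 and TSA against Control its sign depended on the setting, with 0.37 from that fit in each. The replicate block alone called 0 genes and 0 members. It could not change the medians, since every group holds each replicate number. The library set as a term could not change those between treatments, which have the same number of libraries in each set. Of 2314 alternative values of named members, 107 changed sign. That total includes settings that cannot change an estimate, such as the block, the variance trend and the filter. It is therefore not a measure of stability. Unknown depth and 3 libraries a group limit all comparisons.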
